A study of Homo sapiens with 15 samples.

Results

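10 genes that mark or drive the epithelial to mesenchymal transition were followed through cardiac differentiation of human embryonic stem cells. They were taken by symbol from the count table and are 10 of its 60605 genes. CDH1 and EPCAM stand for the epithelial state, CDH2, CDH11 and VIM for the mesenchymal state, and SNAI1, SNAI2, TWIST1, ZEB1 and ZEB2 encode the transcription factors known to drive the transition. All 10 were above the filter used for the tests, an FPKM (reads counted, scaled by exon length and library total) of at least 1 in at least 1 library, which 21206 genes passed. In GRCh38 the cadherin genes lie at chr16:68737292-68835537 (CDH1), chr18:27932879-28177946 (CDH2) and chr16:64943753-65126112 (CDH11), EPCAM at chr2:47345158-47387601 and VIM at chr10:17228241-17237593. The factor genes lie at chr20:49982980-49988886 (SNAI1), chr8:48917598-48921740 (SNAI2), chr7:19020991-19117636 (TWIST1), chr10:31318495-31529814 (ZEB1) and chr2:144364364-144521057 (ZEB2).

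An epithelial to mesenchymal transition is the conversion of a sheet of cells joined by junctions into loose, motile cells. Snail, Twist and Zeb family factors bind E-box motifs in DNA and repress CDH1, which encodes the adhesion molecule E-cadherin, and N-cadherin (CDH2) or cadherin-11 (CDH11) is then often gained, an exchange called the cadherin switch. In the embryo it takes place when epiblast cells pass through the primitive streak to form mesoderm, a step that stem cells induced to mesendoderm are used to model.

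RNA sequencing was performed on 15 bulk libraries of 1 line, the H1 embryonic stem cell line, with no genetic change. Per the methods differentiation was started with CHIR99021, a WNT pathway activator, on day 0 and continued with insulin on day 1, in every arm. Days 0, 1 and 2 were represented by 1 library each, which the arms share. From day 2, NP-ctrl cells (not passaged, no inducer) remained in place. NP-IWP2 cells remained in place and from day 2 received IWP2, an inhibitor of WNT secretion. Per the methods IWP2 was no longer given from day 5 on. On day 2 passaged cells, also called replated cells here, were lifted with EDTA and spread onto fresh Matrigel-coated wells. Per the study, the replated cells were also thinned out at that point, received no inducer afterwards, and belong to experiments for which use of the ROCK inhibitor Y27632 is stated, so lifting, lower density and Y27632 cannot be told apart. Each arm had 1 library on days 3, 5, 7 and 10. No library has a replicate, and whether the arms came from 1 starting well is not given in the sources used here.

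Total counts ranged from 13254723 to 20250115. The day 0 library carried the pluripotent identity of its label, with POU5F1 at 625.3 FPKM, NANOG at 37.2 and SOX2 at 97.1. The share of mitochondrial counts lay between 3.71% and 6.14% in 13 libraries. It was 1.53% in the passaged library of day 3 and 10.3% in that of day 10, and the tests between arms of CDH1, CDH2, SNAI1, SNAI2, TWIST1 and VIM against NP-ctrl are also given without those days. In bulk RNA, fewer cells of a type and less RNA per cell cannot be told apart.

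The promoters of the 3 genes called higher on day 10 than on day 3 in the edgeR fit over the arms are shown (ZEB2 was not higher in replated cells) because they can be searched for the E-box bound by Snail and Zeb factors, CACCTG or its reverse complement CAGGTG. They are RefSeq sequences of build GRCh38.p14, 250 bases before to 50 after the start annotated there. They are read 5′ to 3′ on the strand of the gene, with the motif in capitals. For all 3 genes that start differs from the gene start in the coordinates given above. ZEB1 lies at chr10:31318167-31318466 on the plus strand, ZEB2 at chr2:144520070-144520369 on the minus strand and CDH2 at chr18:28177081-28177380 on the minus strand.
ZEB1: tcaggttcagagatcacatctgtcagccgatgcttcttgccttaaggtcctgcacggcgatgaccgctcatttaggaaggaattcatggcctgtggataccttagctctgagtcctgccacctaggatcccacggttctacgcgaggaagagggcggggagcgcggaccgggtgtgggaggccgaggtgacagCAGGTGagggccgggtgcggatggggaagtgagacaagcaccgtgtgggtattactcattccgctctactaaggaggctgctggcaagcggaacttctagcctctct
ZEB2: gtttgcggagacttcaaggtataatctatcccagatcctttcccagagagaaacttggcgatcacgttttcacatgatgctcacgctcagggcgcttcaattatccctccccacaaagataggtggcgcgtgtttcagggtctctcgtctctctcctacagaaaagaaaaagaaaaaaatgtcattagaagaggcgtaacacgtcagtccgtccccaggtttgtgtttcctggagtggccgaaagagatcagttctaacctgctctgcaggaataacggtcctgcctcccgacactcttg
CDH2: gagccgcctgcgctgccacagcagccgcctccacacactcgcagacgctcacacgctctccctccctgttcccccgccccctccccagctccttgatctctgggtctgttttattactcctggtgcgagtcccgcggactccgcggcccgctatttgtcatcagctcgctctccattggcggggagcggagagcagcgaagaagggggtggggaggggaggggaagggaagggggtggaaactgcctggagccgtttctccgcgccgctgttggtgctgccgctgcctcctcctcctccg
The ZEB1 window held 1 match, starting 57 bases before the start site, and those of ZEB2 and CDH2 held 0. The VIM window, the other one searched among the 10 genes, also held 0. Of 35116 promoters of the same length, 20.6% held at least 1 match. A match is a run of letters and not a measured binding site.

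CDH1 and EPCAM opened the course as abundant epithelial transcripts and were still high when the transcription factors appeared. CDH1 was 73.6 FPKM on day 0, 79.8 on day 1 and 49.6 on day 2. EPCAM, which encodes an epithelial adhesion and surface protein, was 73.5, 77.1 and 37.2 FPKM on the same days. Both were thus near their starting level on day 1 and below it on day 2, to 0.674 of day 0 for CDH1 (95% counting interval 0.652 to 0.697) and 0.506 for EPCAM (0.477 to 0.536). Exact Clopper-Pearson intervals are given for ratios between libraries, and they cover counting error only, not the spread between cultures.

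The transcription factors did not appear together. SNAI1, the Snail factor of the primitive streak, was 4.49 FPKM on day 0, 17.7 on day 1 and 99.7 on day 2, so it was already higher on day 1, when CDH1 was not below its day 0 level. SNAI2, its paralog Slug, had 3 counts on day 0 and was 0.18 FPKM on day 1 and 19.5 on day 2. TWIST1, a basic helix-loop-helix factor of mesoderm and neural crest, was 0.15, 0.14 and 8.28 FPKM. The Snail and Twist transcripts were therefore all present by day 2, with SNAI1 alone already raised on day 1, at 3.94 times its day 0 level (3.25 to 4.81). The Zeb genes, which encode zinc finger and homeodomain factors, were low on these days. ZEB1 was 0.03, 0.04 and 0.73 FPKM, and ZEB2 had 0 counts on day 0, which bounds it at 3 counts, and was 0.20 and 2.77 FPKM on days 1 and 2. On day 2 SNAI1 was 22.2-fold higher than on day 0 (18.6 to 26.6), SNAI2 362-fold (124 to 1757), TWIST1 56.2-fold (23.8 to 174) and ZEB1 21.5-fold (8.96 to 67.2), while ZEB2 was at least 409-fold higher when day 0 is set to 3 counts. The widths of these intervals reflect the 3 to 5 counts that SNAI2 and ZEB1 had on day 0.

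The cadherins moved at different times. CDH2, N-cadherin, was 12.5 FPKM on day 0, 54.9 on day 1 and 23.7 on day 2. Its day 1 level was 4.41 times that of day 0 (4.19 to 4.64) although CDH1 was 1.08 times its own starting level (1.05 to 1.12), so CDH2 was gained while CDH1 was still at its highest. CDH11, a type II cadherin of mesenchymal cells, was 0.76, 3.43 and 10.5 FPKM. VIM, the intermediate filament of mesenchymal cells, was 16.4, 9.20 and 30.6 FPKM. VIM was thus lower on day 1 than on day 0, by a ratio of 0.560 (0.514 to 0.609), and its large increase came after day 2.

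Between single libraries a gene was counted as changed when log2(FPKM + 1) differed by at least 1, with no p-value. Low genes change less on this scale than in their ratios. On day 1, 3 of the 10 genes had changed from day 0, all higher (CDH2, CDH11 and SNAI1), where 3.26% of the 21206 genes were higher. On day 2, 5 had changed, all higher (CDH11, SNAI1, SNAI2, TWIST1 and ZEB2), where 6.57% of all genes were higher. CDH1 and EPCAM, at -0.56 and -0.96, and CDH2, VIM and ZEB1, at 0.87, 0.86 and 0.75, were short of that line on day 2.

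**Figure D1:**
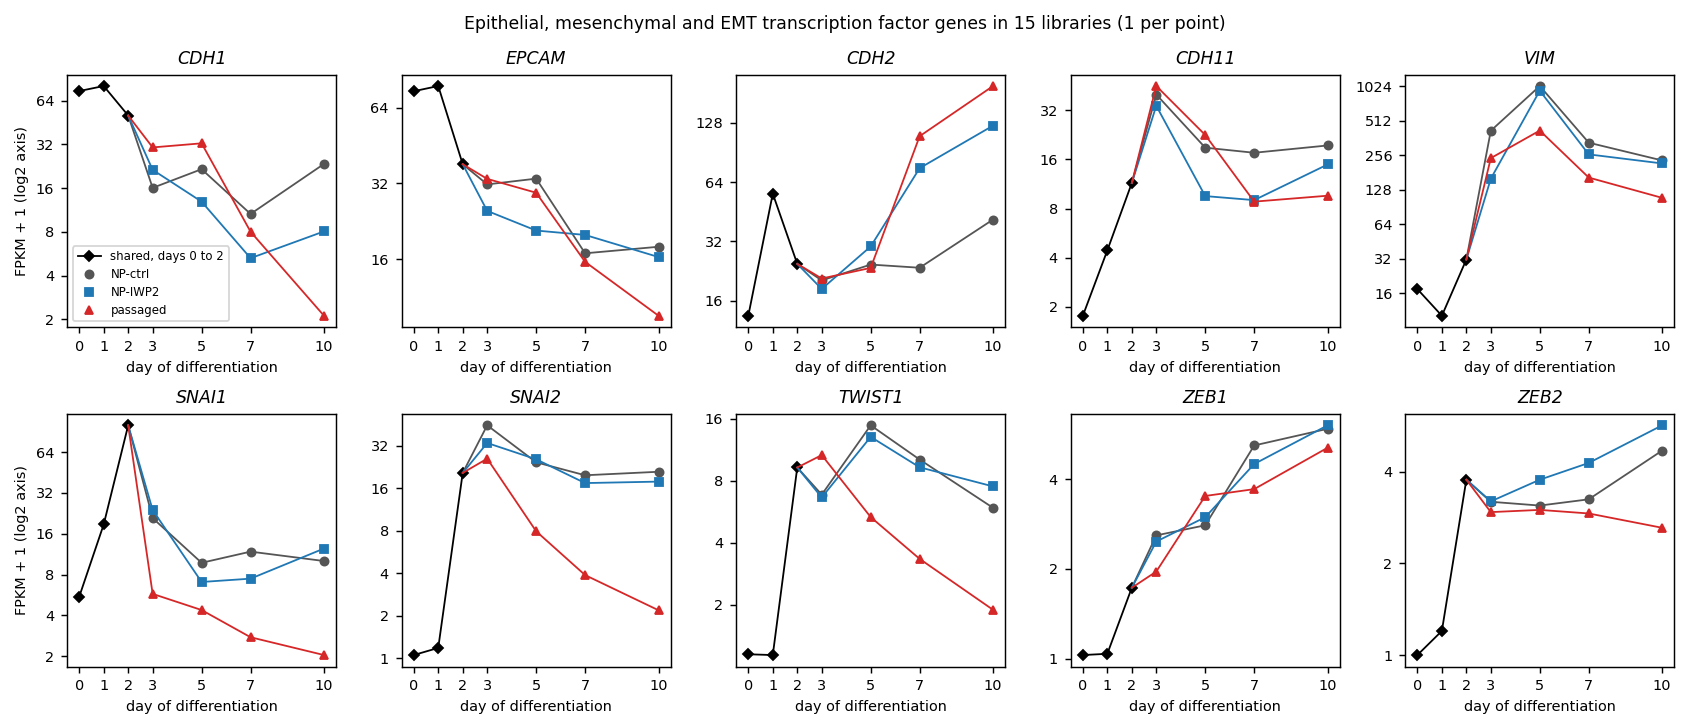
Level of each of the 10 genes against day of differentiation, plotted as FPKM + 1 on a log2 axis, with 1 library per point. Black diamonds are the shared days 0 to 2, grey circles NP-ctrl, blue squares NP-IWP2 and red triangles passaged cells, and lines join each arm to the shared day 2 library. SNAI1 peaks at 99.7 FPKM on day 2, VIM at 1030.3 in NP-ctrl on day 5, and the passaged points of SNAI1 and SNAI2 lie below both static arms on all 4 days.

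Between day 2 and day 3 CDH1 fell in both static arms, VIM and CDH11 rose in every arm, and SNAI1 fell in every arm. CDH1 was 49.6 FPKM on day 2 and on day 3 was 15.1 in NP-ctrl, 20.4 in the NP-IWP2 arm and 29.5 in replated cells. Its day 3 level was 3.29-fold lower than day 2 in NP-ctrl, and 0.411 (0.389 to 0.434) and 0.595 (0.568 to 0.624) of it in the NP-IWP2 arm and replated cells. On the log2 scale these were -1.65, -1.24 and -0.73, so that the passaged arm did not reach the line of 1. EPCAM was 30.7 FPKM in NP-ctrl, 23.9 in the NP-IWP2 arm and 32.4 in replated cells, with log2 differences from day 2 of -0.27, -0.62 and -0.19.

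VIM rose from 30.6 FPKM on day 2 to 419 in NP-ctrl, 159 in the NP-IWP2 arm and 241 in replated cells on day 3. It thus increased 13.7-fold (13.2 to 14.2), 5.21-fold (5.01 to 5.42) and 7.90-fold. CDH11 was 39.1, 33.1 and 44.2 FPKM in the same 3 libraries, from 10.5 on day 2, and the passaged value was its highest in the series. CDH2, in contrast, was 19.3, 17.4 and 19.8 FPKM, below its day 2 level in all 3 arms. Of CDH1, CDH2 and CDH11, CDH11 was thus the one that was higher on day 3 than on day 2, and it was so in all 3 arms.

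SNAI1 on day 3 was 19.9 FPKM in NP-ctrl, 22.9 in the NP-IWP2 arm and 4.76 in replated cells, 5.02-fold and 20.9-fold lower than day 2 in the first and the last of these. SNAI2 was 43.5, 32.4 and 24.9 FPKM and was higher than on day 2 in each arm. TWIST1 was 5.85, 5.64 and 9.66 FPKM, higher in replated cells than in either static arm on this day. Relative to day 2, 5 of the 10 genes had changed in NP-ctrl (CDH11, SNAI2 and VIM higher, CDH1 and SNAI1 lower, background 8.71%), 4 in NP-IWP2 (CDH11 and VIM higher, CDH1 and SNAI1 lower, background 8.98%) and 3 in replated cells (CDH11 and VIM higher, SNAI1 lower, background 11.8%). These comparisons share the day 2 library. When FPKM was rescaled with TMM factors, 56.7% of all changed genes were higher in NP-IWP2 on day 3, against 67.5% without rescaling.

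The ratio of CDH2 to CDH1 within a library does not depend on its depth or scaling, although it does depend on the gene lengths used for FPKM. It was 0.169 (0.161 to 0.178) on day 0, 0.688 (0.668 to 0.709) on day 1 and 0.476 (0.458 to 0.496) on day 2. In NP-ctrl it was 1.28, 1.14, 2.34 and 1.79 on days 3, 5, 7 and 10, so CDH2 exceeded CDH1 from day 3 on. In NP-IWP2 it was 0.852, 2.45, 17.4 and 17.4. In replated cells it was 0.670 (0.632 to 0.709) and 0.713 (0.677 to 0.750) on days 3 and 5, then 15.4 (14.2 to 16.7) on day 7 and 173 (143 to 212) on day 10. CDH2 was above CDH1 in 9 of the 15 libraries, and among those after day 2 the exceptions were NP-IWP2 on day 3 and replated cells on days 3 and 5. On the FPKM scale the passaged arm thus passed 1 between days 5 and 7, and it ended at the highest ratio of the series. With counts in place of FPKM the ratio was 0.946 and 1.01 in replated cells on days 3 and 5 and above 1 in NP-IWP2 on day 3, so that it passed 1 between days 3 and 5 in replated cells, and 11 of the 15 libraries were above 1.

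**Figure D2:**
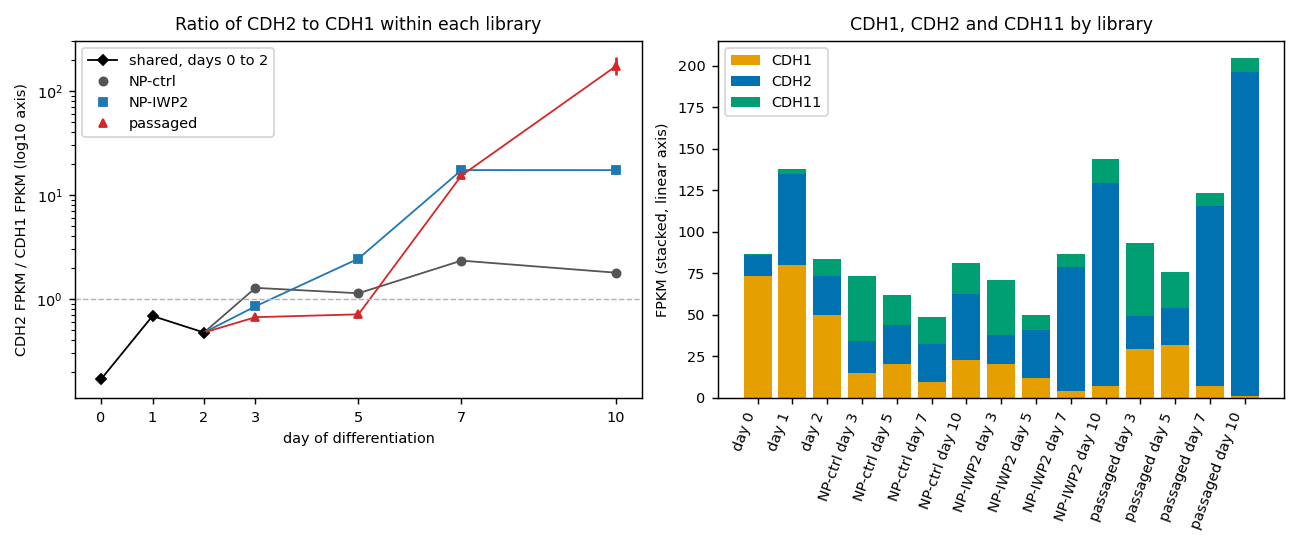
Left, CDH2 FPKM divided by CDH1 FPKM in each library against day, on a log10 axis, with vertical lines for the exact 95% counting interval and a dashed line at 1. Right, CDH1 (orange), CDH2 (blue) and CDH11 (green) FPKM stacked for each library on a linear axis that starts at 0. CDH1 makes up 84.8% of the stack on day 0 and 0.547% in passaged cells on day 10, where CDH2 makes up 95.3%.

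Of the summed FPKM of CDH1, CDH2 and CDH11, CDH11 held 0.875% on day 0 and 53.2%, 46.7% and 47.2% on day 3 in NP-ctrl, NP-IWP2 and replated cells. It was the largest of the 3 shares on that day in every arm. On day 7 CDH2 held 46.2% in NP-ctrl, 85.8% in the NP-IWP2 arm and 87.9% in replated cells. Among all cadherins read here, however, CDH24 was slightly above CDH11 on day 3 in NP-IWP2 (35.55 against 33.14 FPKM) and replated cells (44.50 against 44.15). In NP-ctrl CDH24 was below CDH11 that day, at 35.03 against 39.05 FPKM. CDH3, P-cadherin, a classical cadherin of epithelia, was also not among the 10 genes but outranked these 3 cadherins in several libraries. CDH3 was 39.9 FPKM on day 0 and 16.5 on day 2, and 89.4, 73.8 and 63.7 in NP-ctrl on days 5, 7 and 10. In NP-ctrl it was the highest cadherin on each of those days, so CDH2 exceeding CDH1 there did not make CDH2 the main cadherin. In replated cells CDH3 was 43.1, 29.7 and 40.5 FPKM on days 5, 7 and 10.

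Whether replated cells regained epithelial transcripts was asked by comparing them with the static arms on the same day. On day 3 CDH1 was higher in replated cells than in either static arm, 29.5 FPKM against 15.1 and 20.4, by 1.96-fold (1.84 to 2.09) over NP-ctrl and 1.45-fold (1.36 to 1.54) over NP-IWP2. It was nevertheless below the 49.6 FPKM of day 2 and the 73.6 of day 0. On day 5 it was 31.6 FPKM in replated cells, 20.6 in NP-ctrl and 11.9 in NP-IWP2. The passaged level was flat from day 3 to day 5, then dropped to 7.03 FPKM on day 7 and 1.12 on day 10, the lowest of the 15 libraries, with 104 counts. NP-ctrl was at 9.64 and 22.5 FPKM and NP-IWP2 at 4.28 and 7.07 on those days. On day 10 replated cells were 3.47 below NP-ctrl and 1.93 below NP-IWP2 in log2(FPKM + 1), so the arm with the highest CDH1 on day 3 had the lowest on day 10. The replated libraries of these days are those whose mitochondrial share stood apart, and its part in the CDH1 values was not tested. On day 5, when that share was 5.05%, CDH1 in replated cells was 1.53 times that in NP-ctrl (1.45 to 1.62) and 2.65 times that in NP-IWP2 (2.47 to 2.85).

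EPCAM did not follow CDH1 on day 3. It was 32.4 FPKM in replated cells and 30.7 in NP-ctrl, a ratio of 1.05 whose counting interval (0.970 to 1.14) contains 1, and rescaling by TMM factors turned the sign of this difference. Against NP-IWP2 the ratio was 1.36 (1.24 to 1.49). On days 5, 7 and 10 EPCAM was 28.4, 14.6 and 8.52 FPKM in replated cells, 32.4, 15.9 and 16.9 in NP-ctrl and 19.8, 19.0 and 15.3 in NP-IWP2. Passaged cells on day 10 held the lowest level of the series, 0.504 (0.437 to 0.580) of NP-ctrl. Neither CDH1 nor EPCAM in any passaged library was as high as on day 2.

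Over days 3 to 10 neither gene had a change that passed the test between arms. The arms were compared with edgeR on the 12 libraries of these days, with day as a block and Benjamini-Hochberg adjustment over 21206 genes, so the error measures how the difference between arms varied over 4 days of the same cultures, not over independent experiments. For CDH1 the log2 change of passaged against NP-ctrl was -0.45 (SE 0.63, edgeR adjusted p = 0.760), higher in replated cells on 2 of 4 days. Leaving out day 3 gave -0.87 (edgeR adjusted p = 0.517) and leaving out day 10 turned it to 0.36. For EPCAM it was -0.24 (SE 0.21, edgeR adjusted p = 0.609), higher on 1 of 4 days. Against NP-IWP2 the log2 change was 0.51 for CDH1 (SE 0.60, edgeR adjusted p = 0.786) and 0.01 for EPCAM (SE 0.21, edgeR adjusted p = 1).

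Liver and endoderm epithelium transcripts moved with the arms on the late days. Their 9 markers summed to 21.9 to 4013 FPKM over days 3 to 10 in NP-ctrl, 28.3 to 1181 in the NP-IWP2 arm and 4.09 to 20.8 in replated cells. In replated cells on day 10 FOXA2 and APOA2 were at 0, and AFP was 0.23 FPKM against 2366 in NP-ctrl. The part of these cells in the late CDH1, EPCAM and CDH3 levels of the static arms was not tested. On day 3 the sums were 21.9 FPKM in NP-ctrl, 28.3 in the NP-IWP2 arm and 20.8 in replated cells. The 7 pluripotent markers summed to 362, 368 and 503 FPKM in the same libraries. The part of either list in the day 3 CDH1 levels was not tested.

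SNAI1 had the smallest adjusted p of the 10 genes against both static arms. It was 4.76, 3.38, 1.76 and 1.04 FPKM in replated cells on days 3, 5, 7 and 10. In NP-ctrl it was 19.9, 8.76, 10.8 and 9.06 FPKM, and in NP-IWP2 22.9, 6.05, 6.46 and 11.4. Every passaged value was below every static value. The log2 change against NP-ctrl was -2.16 (SE 0.33, edgeR adjusted p = 0.00560), lower on 4 of 4 days, and against NP-IWP2 -2.01 (SE 0.33, edgeR adjusted p = 0.0184), also lower on 4 of 4. Without day 3 these were -2.16 (edgeR adjusted p = 0.00951) and -1.91 (0.0388), and without day 10 -1.98 (0.0152) and -1.62, the latter just above the threshold. Without day 7 neither passed, with edgeR adjusted p of 0.0699 and 0.119.

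SNAI2 was lower in replated cells than in NP-ctrl, and the distance was largest on day 10. It was 24.9, 6.91, 2.87 and 1.18 FPKM in replated cells, 43.5, 23.4, 18.7 and 19.9 in NP-ctrl and 32.4, 24.6, 16.4 and 16.8 in NP-IWP2. The passaged level was below both static arms on each of the 4 days. The log2 change against NP-ctrl was -2.10 (SE 0.43, edgeR adjusted p = 0.0212), lower on 4 of 4 days. Against NP-IWP2 it did not pass, although it was also lower on 4 of 4 days (edgeR adjusted p = 0.0644). Without day 3 the changes were -2.64 (edgeR adjusted p = 0.00157) and -2.52 (0.00457), whereas without day 5 (0.108) or day 7 (0.182) the change against NP-ctrl no longer passed. Without day 10 it was -1.66 against NP-ctrl (edgeR adjusted p = 0.0476) and -1.48 against NP-IWP2 (0.101). By day 10 SNAI2 was 16.8-fold lower in replated cells than in NP-ctrl and 14.2-fold lower than in NP-IWP2.

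These were 2 of the 10 genes called against NP-ctrl, both lower, where 2.76% of all genes tested were called lower and 1.64% higher, and 1 of 10 against NP-IWP2, where the shares were 0.915% lower and 0.415% higher. TWIST1 was 9.66, 4.33, 2.34 and 0.89 FPKM in replated cells, 5.85, 13.9, 9.14 and 4.91 in NP-ctrl and 5.64, 12.1, 8.30 and 6.51 in NP-IWP2. It was above the static arms on day 3 and below them on days 5 to 10, and the log2 change over all days was -1.13 against NP-ctrl (SE 0.48, edgeR adjusted p = 0.229). Without day 3, the library of low mitochondrial share, it was -1.89 (edgeR adjusted p = 0.00199), and without day 10, the library of high share, -0.83 (edgeR adjusted p = 0.554). The 3 Snail and Twist genes were thus all at their lowest level after day 2 in replated cells on day 10.

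The Zeb genes did not separate the arms in the same way. ZEB1 was 0.96, 2.51, 2.70 and 4.09 FPKM in replated cells, 1.59, 1.80, 4.18 and 4.89 in NP-ctrl and 1.47, 1.98, 3.49 and 5.05 in NP-IWP2, increasing from day to day in every arm. The log2 change of replated cells against NP-ctrl was -0.22 (SE 0.20, edgeR adjusted p = 0.633). ZEB2 was 1.95, 2.00, 1.92 and 1.62 FPKM in replated cells, 2.19, 2.10, 2.25 and 3.70 in NP-ctrl and 2.20, 2.77, 3.28 and 4.69 in NP-IWP2, and its log2 change against NP-IWP2 was -0.66 (SE 0.20, edgeR adjusted p = 0.168). ZEB1 counts are uncertain because the antisense gene ZEB1-AS1 overlaps it, with up to 213 counts beside 692 for ZEB1, and the use of strand in the counting is not given in the sources used here. An antisense gene with up to 52 counts, beside 206 for TWIST1, likewise overlaps TWIST1.

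VIM peaked on day 5 in every arm, at 1030.3 FPKM in NP-ctrl, 938 in the NP-IWP2 arm and 420 in replated cells. On day 10 it was 230 FPKM in NP-ctrl, 217 in the NP-IWP2 arm and 108 in replated cells. The log2 change of replated cells against NP-ctrl was -0.99 (SE 0.27), lower on 4 of 4 days, and did not pass (edgeR adjusted p = 0.0675). CDH2 was 19.8, 22.5, 108 and 195 FPKM in replated cells, 19.3, 23.5, 22.6 and 40.3 in NP-ctrl and 17.4, 29.2, 74.3 and 123 in NP-IWP2. Up to day 5 the arms differed by at most 1.30-fold, and on day 7 replated cells were 4.80-fold above NP-ctrl and 1.46-fold above NP-IWP2. The log2 change over all days was 1.12 against NP-ctrl (SE 0.44, edgeR adjusted p = 0.184), and 1.60 (edgeR adjusted p = 0.0457) without day 3. Leaving out day 3 also gave VIM an edgeR adjusted p of 0.00693, so that 5 of the 10 genes passed. That fit called 2373 of all 21206 genes, against 933 with day 3 included. Without day 10 the changes were 0.67 for CDH2 (edgeR adjusted p = 0.609) and -1.01 for VIM (edgeR adjusted p = 0.210).

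CDH2 is also the cadherin of heart muscle junctions. The 6 cardiomyocyte markers summed to 10.3 to 560 FPKM over days 3 to 10 in NP-ctrl, 7.86 to 2058 in the NP-IWP2 arm and 16.7 to 3308 in replated cells, with none at 0. The 6 fibroblast markers summed to 125 to 4057 FPKM in NP-ctrl, 95.6 to 1160 in the NP-IWP2 arm and 96.2 to 413 in replated cells, and LUM, at 723 FPKM in NP-ctrl on day 10, was 1.80 in replated cells. The part of these cell types in the CDH2, VIM, SNAI1, SNAI2 and TWIST1 differences was not tested. On day 3 the cardiomyocyte and fibroblast sums were 16.7 and 172 FPKM in replated cells and 10.3 and 125 in NP-ctrl.

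The 10 genes were also compared between passaged and NP-ctrl cells day by day. On day 3 the number that differed by at least 1 was 1 of 10 (SNAI1, lower), where 3.48% of all genes were lower. On day 5 it was 4, all lower (SNAI1, SNAI2, TWIST1 and VIM), where 4.42% were lower. On day 7 the same 4 were lower and CDH2 was higher, against 12.6% of all genes in either direction, and on day 10 CDH1, CDH11, SNAI1, SNAI2, TWIST1 and VIM were lower and CDH2 higher, against 17.4%. With FPKM rescaled by TMM factors the numbers on the 4 days were 1, 4, 4 and 5. Against NP-IWP2 the numbers were 1, 5, 3 and 5 of 10 on the 4 days, all lower except CDH1 and CDH11 on day 5. The share of all genes was 5.05% lower on day 3, 7.51% in either direction on day 5, 4.38% lower on day 7 and 7.01% lower on day 10. These 2 sets of comparisons share the passaged libraries. Scaling to TPM moved the median of all genes to 0.28 on day 3 and -0.38 on day 10 against NP-ctrl, from 0.03 and -0.09, and the share of changed genes that were higher to 75.0% and 21.1%, from 59.1% and 32.6%. On that scale CDH1 was 1.24 higher on day 3 and 4.31 lower on day 10 (log2), both beyond the shifted median. Against NP-IWP2 on day 10, 30.4% of changed genes were higher and 40.9% with TMM factors.

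**Figure D3:**
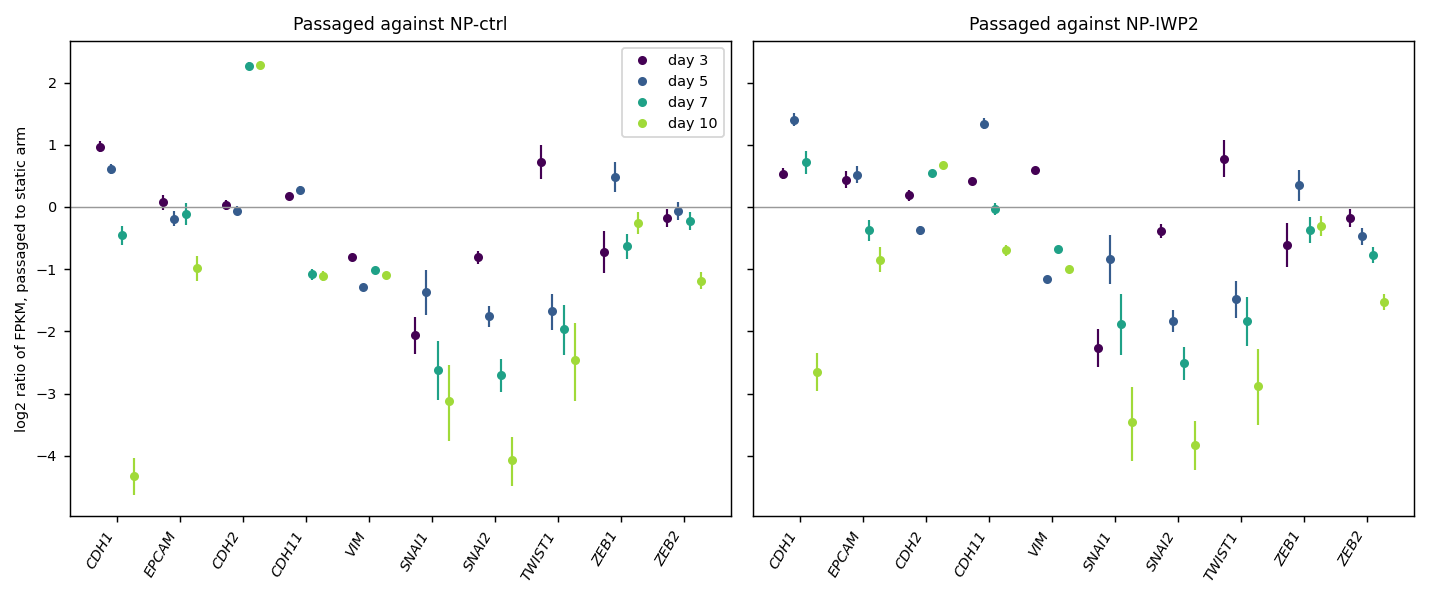
log2 ratio of FPKM in passaged cells to NP-ctrl (left) and to NP-IWP2 (right) for each of the 10 genes on days 3, 5, 7 and 10 (purple, blue, teal, green), with vertical lines for exact 95% counting intervals. Points above 0 are higher in passaged cells. SNAI1 and SNAI2 lie below 0 on all 4 days in both panels, and CDH1 lies above 0 on days 3 and 5 and lowest on day 10.

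The static arms, which differ by IWP2, were compared in the same way. Of the 10 genes, 0 were called between NP-IWP2 and NP-ctrl by edgeR, where 0.00943% of all genes were called higher and the same share lower, and 1, CDH11, had an unadjusted p under 0.05. DESeq2 and limma also called 0. CDH11 was 39.1, 17.9, 16.6 and 18.5 FPKM in NP-ctrl and 33.1, 8.54, 8.01 and 13.9 in NP-IWP2, and the fitted log2 change was -0.70 (SE 0.26, edgeR adjusted p = 0.973). By single libraries VIM was lower by 1.39 (log2) on day 3 (0.858% of all genes lower), 0 of the 10 changed on day 5 (2.97% of all genes in either direction), and on days 7 and 10 CDH1 was lower, by 1.01 and 1.54, and CDH2 higher, by 1.68 and 1.58 (7.26% and 9.35% of all genes in either direction). The late rise of the CDH2 to CDH1 ratio was therefore seen in NP-IWP2 as well as in replated cells, whereas SNAI1, SNAI2 and TWIST1 in NP-IWP2 stayed between 0.598 and 1.33 times NP-ctrl on every day.

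Across the 3 arms together, day 10 was compared with day 3 in the same fit. CDH2, ZEB1 and ZEB2 rose, CDH2 by 2.49 (SE 0.51, edgeR adjusted p = 0.00337) and ZEB2 by 0.64 (SE 0.23, edgeR adjusted p = 0.0489) on the log2 scale. ZEB1 had the smallest adjusted p of the 10 genes (edgeR adjusted p = 0.000195), with an increase in 3 of 3 arms. SNAI2, CDH11, SNAI1 and EPCAM fell, by 2.00, 1.44, 1.24 and 1.04 on that scale, with edgeR adjusted p of 0.00925, 0.00419, 0.0215 and 0.00750. These were 7 of the 10 genes, where 17.9% of all genes tested were called higher and 17.1% lower. The rise of ZEB2 rests on the static arms, since in replated cells it was 1.95 FPKM on day 3 and 1.62 on day 10. Without the NP-IWP2 arm ZEB2 did not pass (edgeR adjusted p = 0.480), and neither did CDH2, SNAI1 or SNAI2. That fit called 3 of the 10 genes and 2235 of all genes, against 7423 with all arms. In the fit of all arms CDH1, VIM and TWIST1 did not pass (edgeR adjusted p = 0.200, 0.239 and 0.131). Without the passaged arm, which holds both libraries whose mitochondrial share stood apart, the same 7 genes passed, with 1.88 for CDH2 (edgeR adjusted p = 0.00556), 1.70 for ZEB1 (0.000151) and -1.05 for SNAI2 (0.00249).

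Other genes of epithelial junctions and polarity, such as claudins, desmosome and tight junction genes, were read beside CDH1 and EPCAM. Of 25 genes, 24 were above the filter, and from day 0 to day 2 10 were lower by at least 1 and 0 higher, with a median log2 difference of -0.76 against 0.01 for all genes, of which 5.17% were lower. CLDN6, a claudin of early epithelia, went from 514 to 152 FPKM, and MARVELD3, a tight junction protein, from 6.51 to 1.13. Of 21 epithelial regulators and surface proteins above the filter, 8 were lower and 1 higher, with a median of -0.76. Among them ESRP2, a splicing regulator of epithelial isoforms, went from 14.4 to 2.09 FPKM, ST14, a membrane protease of epithelia, from 20.5 to 2.83, and CD24 from 532 to 104. Genes of both lists thus passed the line of 1 on day 2, which CDH1 and EPCAM did not reach.

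On day 3, 1 day after replating, few of these genes had changed between the arms. Of the 24 junction and polarity genes, 1 was higher by at least 1 in replated cells than in NP-ctrl and 0 lower, with a median of 0.03, where 5.02% of all genes were higher and 3.48% lower. The exception was CGN, the tight junction protein cingulin, at 9.32 against 3.60 FPKM. Of the 21 regulators and surface proteins, 3 were higher and 1 lower, with a median of 0.21. GRHL3, a grainyhead factor of epithelial differentiation, was 4.16 against 0.25 FPKM, a ratio of 16.5 (9.93 to 29.3), and PROM1 was 14.1 against 3.89. PRSS8, the 1 lower gene, was 11.45 against 26.72 FPKM. Short of the line of 1, ESRP1 was also lower (3.93 against 7.27), as was AP1M2 of the junction list (4.03 against 8.06). By sign alone, 13 of the 21 and 12 of the 24 were higher, and 8 and 12 lower. GRHL3 was 0.46 FPKM in replated cells on day 7 and 0.07 on day 10, so within that arm it fell late, as CDH1 did. Unlike CDH1 it was low on day 0, at 0.26 FPKM. GRHL3 passed the filter only through replated cells on days 3 and 5, and was below 1 FPKM in every other library. The arm in which it was high thus brought it into the list. No conclusion is drawn from its place in the counts of higher genes on day 3. Against day 2, 5 of the 21 were higher and 4 lower in replated cells on day 3, with a median of 0.22. In NP-ctrl 2 were higher and 1 lower (median -0.39), and in NP-IWP2 0 and 2 (median -0.38). The shares of all genes changed in either direction were 11.8%, 8.71% and 8.98%. Of the 24, 1 was higher and 3 lower than on day 2 in replated cells, with a median of -0.02. On day 10, 9 of the 24 were lower and 2 higher in replated cells, and 7 of the 21 were lower and 0 higher. Their medians were -0.72 and -0.56, where that of all genes was -0.09. Of all genes, 11.7% were lower and 17.4% differed in either direction. Over all days edgeR called 1 of the 24 against NP-ctrl, the desmosomal cadherin DSG2 (-1.13, SE 0.23, edgeR adjusted p = 0.0212), lower on 4 of 4 days, and 0 of the 21, with 14 and 7 at an unadjusted p under 0.05. Without day 3 it called 9 and 3, without day 10 0 and 0, DESeq2 8 and 4, and limma 0 and 0, so these counts turn on single days and on the tool. The edgeR fit over all days called 933 of the 21206 genes, and these settings 2373, 323, 2150 and 163.

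Mesenchymal structural genes, mostly matrix proteins and integrins, numbered 30, all above the filter. On day 2, 8 were higher and 2 lower than on day 0, with a median of 0.07, where 6.57% of all genes were higher and 5.17% lower. LOX, which crosslinks collagen, went from 0.38 to 47.6 FPKM, ITGA5, a fibronectin receptor subunit, from 3.34 to 77.6 and COL5A1 from 2.89 to 67.8. On day 3, 5 were higher and 2 lower in replated cells than in NP-ctrl, PDGFRB at 50.9 against 19.5 FPKM and COL1A1 at 102 against 41.1, with LOX at 0.74 against 4.52. Of all genes, 5.02% were higher and 3.48% lower that day. On day 5, 3 were higher and 11 lower, with a median of -0.44, where 1730 of all 21206 genes differed in either direction. On day 7, 6 were higher and 15 lower, with a median of -0.89, where 12.6% of all genes differed. FN1, fibronectin, was 1027 and 1055 FPKM in replated cells on these days and 298 and 239 in NP-ctrl. On day 10, 1 was higher and 21 lower, with a median of -2.28, where 17.4% of all genes differed in either direction and 11.7% were lower. Over all days edgeR called 7 against NP-ctrl, 6 lower and 1 higher, where 2.76% of all genes were called lower and 1.64% higher. The largest changes were those of LUM (-7.21, SE 1.61, edgeR adjusted p = 0.0303), DCN (-7.07, SE 1.46, edgeR adjusted p = 0.0225) and COL1A2 (-2.54, SE 0.58, edgeR adjusted p = 0.0336), collagen and proteoglycan genes that were lower on 3 of 4 days, LUM and DCN being also fibroblast markers. ITGAV, an integrin subunit, was the one called higher (1.35, SE 0.26, edgeR adjusted p = 0.0173). Without day 3 edgeR called 16 of the 30 and without day 10 it called 2, and limma called 0. Over all genes these settings called 2373, 323 and 163.

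The other transcription factors linked to the transition did not share 1 direction. Of 18, 7 were higher and 2 lower on day 2 than on day 0, among them FOXC2, a forkhead factor of mesoderm, from 0.12 to 23.8 FPKM. Of all genes, 6.57% were higher and 5.17% lower. Over days 3 to 10 edgeR called 5 against NP-ctrl, 2 higher and 3 lower, where 1.64% of all genes were called higher and 2.76% lower. FOXC2 was 77.4, 8.13, 4.12 and 0.91 FPKM in replated cells and 15.9, 0.31, 0.31 and 0.08 in NP-ctrl, higher on 4 of 4 days (3.51, SE 0.52, edgeR adjusted p = 0.00491). PRRX1, a homeobox factor of limb and connective tissue mesenchyme, was lower on 4 of 4 days, with 2.53 FPKM against 47.4 on day 5 (-4.62, SE 0.61, edgeR adjusted p = 0.00255). KLF8 (-1.25) and SOX4 (-0.77), also called, were lower on 4 of 4 days. Without day 3 there were 7 calls and without day 10 there were 3, where 2373 and 323 of all genes were called. In replated cells, lower SNAI1 and SNAI2 thus stood beside higher FOXC2.

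The 15 regulators of gastrulation included the streak genes that accompany SNAI1. From day 0 to day 2, 9 were higher and 1 lower, with a median of 1.62, where 6.57% of all genes were higher and 5.17% lower. EOMES, a T-box factor of mesendoderm, went from 0.19 to 128 FPKM and TBXT, brachyury, from 0.18 to 95.4. On day 3, 6 were lower and 0 higher in replated cells than in NP-ctrl, with a median of -0.81. Of all genes, 3.48% were lower and 5.02% higher. MESP1, a factor of early heart mesoderm, was 2.59 against 41.8 FPKM, and TBX6, of presomitic mesoderm, 1.01 against 19.4. MESP1 and its neighbour MESP2 (2.71 against 46.5) are close copies, so their split is uncertain. Lower SNAI1 in replated cells on day 3 thus stood beside 6 lower genes of this list. Over all days 1 of the 15, FGF8, was called against NP-ctrl, and it was higher (2.57, SE 0.47, edgeR adjusted p = 0.0130), where 1.64% of all genes were called higher. Without day 10 edgeR called 0 of the 15, and without day 3 it called 2, where 323 and 2373 of all genes were called.

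Among 11 other cadherins above the filter (of 20), CDH4, R-cadherin, was called higher against NP-ctrl (1.72, SE 0.32, edgeR adjusted p = 0.0135) on 4 of 4 days. CDH22 was called lower against NP-IWP2 (-3.56, SE 0.59, edgeR adjusted p = 0.0178). It passed the filter only through NP-IWP2 on day 3, at 4.98 FPKM, and was below 1 FPKM in every other library. The arm in which it was high thus brought it into the test, and no conclusion is drawn from this call. Of the 8 catenin genes, whose products bind cadherin tails, 0 changed by at least 1 from day 0 to day 2 or between passaged and NP-ctrl cells on day 3, and 0 were called by edgeR between those arms, with 2 at an unadjusted p under 0.05. DESeq2 called 1 of the 8 and limma 0.

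**Figure D4:**
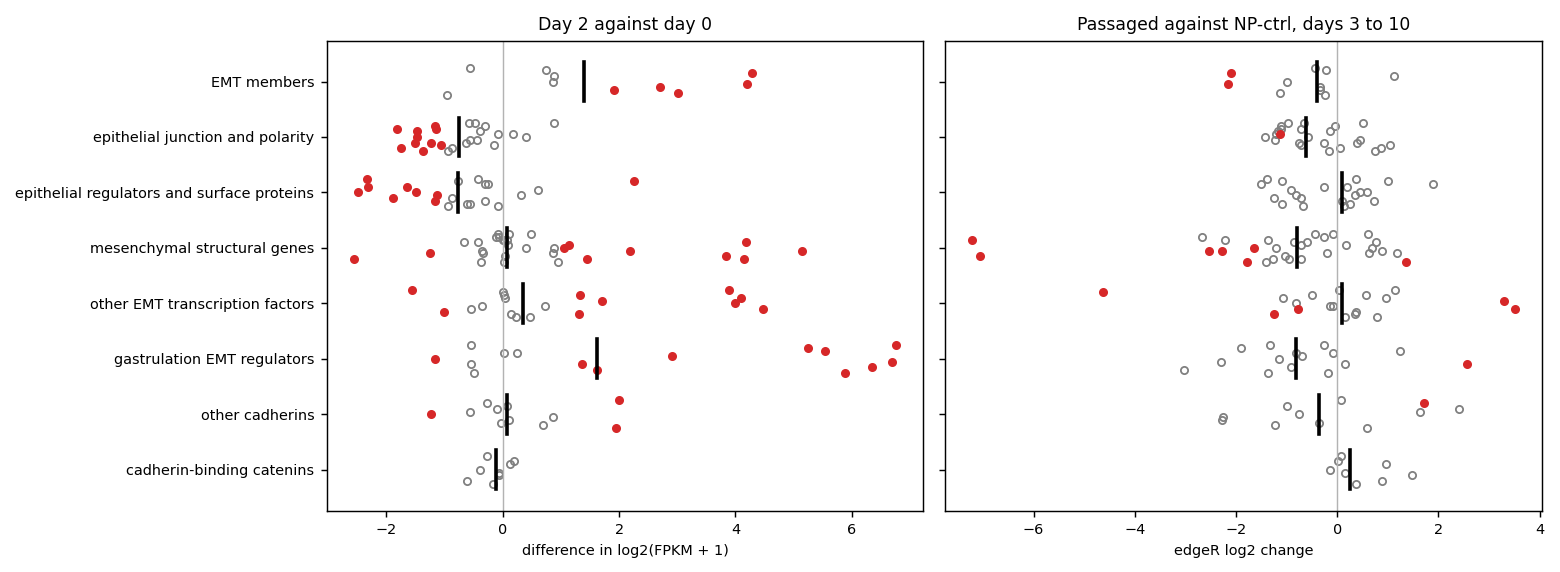
Each point is 1 gene above the filter, by list. Left, difference in log2(FPKM + 1) of day 2 against day 0; right, edgeR log2 change of passaged against NP-ctrl over days 3 to 10. Red points pass a difference of 1 (left) or an adjusted p under 0.05 (right), grey circles do not, and black bars are medians, which on the left run from -0.76 for both epithelial lists to 1.62 for gastrulation genes.

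Likeness of pattern was measured for both cadherins of the switch as Pearson's r of log2(FPKM + 1) over the 15 libraries, among 11040 genes. The libraries share cultures and an arm's days are ordered, so these values describe the series only. The closest to CDH1 were GMDS (0.943), ALDH18A1 (0.933) and SLC6A6 (0.931), each highest on day 0. The closest to CDH2 were FEM1B (0.943), ATAD1 (0.938) and ACADSB (0.936), each highest on day 10 in NP-IWP2 or replated cells.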

How the data were processed

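15 bulk RNA libraries of the H1 line were analysed, 1 per arm and day. The authors deposited raw counts per gene, and FPKM values made from the same counts. The submitters' processing notes name Cutadapt 1.9.1, HISAT2 2.0.1, HTSeq 0.6.1, DESeq2 and the build hg38. The deposited FPKM values were recomputed here from counts, exon lengths and library totals within 0.005. The methods name a long-read library kit beside these short-read tools, so levels scaled by length carry that doubt, and the strand setting of the counting is not given in the sources used here. Coordinates of the 10 genes were identical to GENCODE 44 (GRCh38).

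Arms were compared over days 3 to 10 with edgeR 4.0.16 (quasi-likelihood, TMM factors, arm and day terms, 12 libraries, R 4.3.3) on 21206 genes, called at a Benjamini-Hochberg adjusted p under 0.05. Pairs of single libraries have no p-value, only an FPKM ratio with an exact 95% Clopper-Pearson interval (scipy 1.17.1). A count of 0 was set to 3 counts. Alternatives were DESeq2 1.42.0, limma 3.58.1 on log2(FPKM + 1), median-of-ratios (RLE) factors, no filter, only the 2 compared arms, leaving out each day or arm, a pseudocount of 0.1, TPM and TMM-rescaled FPKM. The fitting script was tested on simulated data.

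The 10 genes, the lists and the tests were chosen with earlier results of these data known. Beyond the 10 genes, the rule named up to 3 genes of each list with the largest difference of day 2 against day 0 and of passaged against NP-ctrl cells on day 3, up to 3 with the largest change among those called between these arms, and the 3 most correlated with CDH1 and with CDH2. ITGAV, FN1, KLF8, SOX4, CDH22 and CDH24, CDH3 on the late days, and the marker genes of cell types were named after their values were seen. 1 gene that the rule named is not reported here. The marker lists were pluripotent cells, endoderm and liver epithelium, cardiomyocytes, mesothelium and epicardium, fibroblasts, endothelium, surface ectoderm and neural cells.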

Additional observations from a re-analysis of the deposited data

How the results depend on the processing

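No result changed direction past a threshold under the alternatives run. Against NP-ctrl over days 3 to 10, edgeR called 933 genes and 2 of the 10. DESeq2 called 2150 genes, limma 163 and 1 of the 10, no filter 2571 and 5 of the 10, and only the 2 compared arms 109 and 1 of the 10. Leaving out each day gave 133 (without day 7) to 2373 genes (without day 3), and 0 to 5 of the 10. Against NP-IWP2 it called 282 genes and 1 of the 10. DESeq2 called 886 and 2 of the 10, limma 6 and 0, no filter 1368 and 3, only the 2 compared arms 163 and 0, and leaving out each day 13 to 675 genes and 0 to 4 of the 10. Between NP-IWP2 and NP-ctrl it called 4 genes, DESeq2 61, limma 0, no filter 372, only the 2 compared arms 277 and leaving out each day 0 to 35, and none of these called any of the 10. For day 10 against day 3 (7423 genes, 7 of the 10), leaving out each arm gave 2235 (without NP-IWP2) to 7262 genes and 3 to 7 of the 10, and without that arm CDH2, SNAI1, SNAI2 and ZEB2 no longer passed.

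Of the counts between single libraries, passaged against NP-ctrl on day 3 went from 1 to 2 of the 10 with TPM, NP-IWP2 against NP-ctrl on day 5 from 0 to 1 with a pseudocount of 0.1 or with TPM, and on day 7 from 2 to 1 with TMM-rescaled FPKM. Over all genes, the number changed was 1.89 to 4.18 times as large with a pseudocount of 0.1 and 1.82 to 3.07 times with TPM. Of 170 differences of the 10 genes, 4 took the other sign with TPM and 5 with TMM factors, each at most 0.11 in size before.

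No paired analysis was possible because the labels give no replicate numbers and each arm and day has 1 library. The day block stands in for pairing in the tests, and its spread is not that of independent cultures. At 3 to 5 counts on day 0, SNAI2 and ZEB1 limit how precisely their early increase is known.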

Other observations

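The marker lists not set beside a result above, and the pluripotent list on other days, had these summed levels. The 7 pluripotent markers went from 1737 FPKM on day 0 to 755 on day 2. On day 10 they were 46.0 in NP-ctrl, 40.0 in the NP-IWP2 arm and 64.5 in replated cells. In replated cells that day TDGF1 was 48.1 FPKM and POU5F1 was at 0. SOX2 was 41.6 FPKM in replated cells on day 5 against 0.51 in NP-ctrl. The 6 mesothelium and epicardium markers were 69.6 FPKM in NP-ctrl, 76.7 in the NP-IWP2 arm and 0.39 in replated cells on day 10. The 6 endothelium markers lay between 23.7 and 172 FPKM over the 15 libraries. The 5 surface ectoderm markers were highest in replated cells on day 5, at 11.5 FPKM, nearly all TFAP2A. The 5 neural markers lay between 39.7 and 131 FPKM.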
